A study of Sus scrofa with 24 samples.

Results

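The cytosolic ribosomal protein genes of pig back muscle are described here, as measured by RNA sequencing in animals with much or little fat within the muscle. Members were defined by name, and the set was chosen with earlier results of these data known. A gene counted as a member if its symbol was RPL or RPS followed by a digit, or RPLP0, RPLP2 or RPSA, and RPS6 kinases and the RPS19 binding protein were left out. This gave 57 gene symbols of 12013 genes, and 125 of the 22154 transcripts in the deposited table. By name, 33 members belong to the large and 24 to the small ribosomal subunit. RPL17-C18orf32 carries the name of a readthrough locus and RPL23AP37 that of a pseudogene. RPLP1, RPS6, RPL36A and RPS27 were not matched to a name in the table and are not analysed here.

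The samples are longissimus dorsi, a muscle that runs along the spine, from 24 F1 pigs. By the labels, 12 animals had high and 12 had low intramuscular fat (IMF). All came from a cross of 8 Duroc boars with 112 Luchuan sows that gave 265 offspring, shared 1 farm and diet, and were slaughtered at 210 ± 6 days. Muscle was sampled 25 minutes after death, and each library is 1 animal. No animal was treated, so IMF class is an observed trait. The p-values for the groups set their difference against the spread between animals. Animals are numbered within a group in the order of their accessions.

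The ribosome joins amino acids into protein. Its small subunit reads the messenger RNA and its large subunit forms the peptide bond. Each subunit is a core of ribosomal RNA bound by many small proteins, most of them needed in one copy per ribosome. Their messenger RNAs start with a run of pyrimidines, and their translation is controlled together through the mTORC1 kinase pathway. In skeletal muscle, where fibres hold large amounts of contractile protein, ribosome number is one limit on how much protein is made. A few members have paralogs, and RPL3L is the paralog of RPL3 found mainly in heart and skeletal muscle of mice and humans.

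The estimated depth of the high IMF libraries was 36.2 ± 2.43 M and that of the low IMF libraries 36.9 ± 1.28 M (SD, n = 12 each). M stands for mega, and whether the depth counts reads or pairs is not known. All 12 muscle fibre markers, among them ACTA1, CKM and MYH7, were in the table, and their sum ran from 23686 to 55747 FPKM in high IMF (median 46628) and from 27329 to 64147 FPKM in low IMF (median 53741). The 11 adipocyte markers summed to 153 to 308 FPKM in high IMF (median 208.1) and 103 to 230.3 FPKM in low IMF (median 141.5). The 3 of 6 blood cell markers in the table summed to 13.1 to 174 FPKM in high IMF (median 75.2) and 9.85 to 83.7 FPKM in low IMF (median 37.3). FPKM counts sequenced fragments per length of transcript and per size of library. Levels can thus be compared between genes only as far as the listed gene models and the assignment of reads are right. The leading 10 genes held 26.8 ± 2.54% of the total in high and 29.3 ± 3.79% in low IMF animals (SD, n = 12 each). That share was smallest in low IMF animal 10, at 18.5%, and in high IMF animal 7, at 20.2%. Whether these shifts in composition contribute to the values below was not tested. In bulk muscle, fewer cells of a type and less RNA per cell cannot be told apart.

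Ribosomal protein genes were among the most abundant transcripts of the muscle. The median member averaged 338.6 FPKM over the 24 animals, and the median of all genes in the table was 3.16 FPKM. Of the 57 members, 46 averaged at least 100 FPKM, 8 averaged under 20, and 19 were among the 100 most abundant genes. All 57 were above 0 in every library. Every transcript that the table lists was above 0 in at least 19 libraries.

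At the top stood RPS16, a small subunit protein. It had 864 to 1521 FPKM in high IMF, with a median of 1164, and 821 to 1714 FPKM in low IMF, with a median of 1199.7. RPLP0, which anchors the stalk that recruits elongation factors, averaged 1097 ± 188 FPKM in high and 1061 ± 202 FPKM in low IMF (SD, n = 12 each). RPLP2, a further stalk protein, averaged 196.5 ± 33.3 FPKM in high and 185.9 ± 34.3 FPKM in low IMF (SD, n = 12 each). RPLP0 was far above RPLP2, and neither differed between the groups by more than its SD.

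RPL41, the smallest protein of the large subunit, averaged 980.4 ± 146 FPKM in high and 987.8 ± 174 FPKM in low IMF. Its only listed transcript was added by the assembly and lies wholly within the span of the RefSeq gene ZC3H10. RefSeq does not list the symbol RPL41, so its level is uncertain. RPL7A averaged 894.6 ± 97.7 FPKM in high and 920.2 ± 201 FPKM in low IMF. RPS28 averaged 727.6 ± 177 FPKM in high and 736.6 ± 143 FPKM in low IMF (all SD, n = 12 each). None of these 3 genes differed between the groups by more than its SD. RPSA, which is also known as a laminin receptor, averaged 187.5 ± 32.4 FPKM in high and 184.4 ± 39.2 FPKM in low IMF (SD, n = 12 each).

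The 9 most abundant members held 36.7% of all ribosomal protein FPKM, and the highest mean was 1172 times the lowest. That lowest mean belonged to RPL23AP37, which carries the name of a pseudogene, and the next lowest, RPL36AL, averaged 6.90 FPKM. The listed values of the members were thus very unequal. Their order ran in part with the length of the gene model. Across the 57 members, mean FPKM and the length of the main listed transcript had a Spearman rho of -0.56, given as a description across genes. The 17 members whose main transcript was under 700 bases had a median of 417.2 FPKM, and the 9 with over 2500 bases had a median of 117.2 FPKM.

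Several of the low members have gene models that differ from a plain copy of their gene. The symbols of 54 members are in the RefSeq table of the same assembly, Sscrofa11.1. Those of RPL41, RPL17-C18orf32 and RPL23AP37 are absent from it. For 53 of the 54 the main listed transcript overlaps the RefSeq locus of that symbol. The exception is RPL35A, a large subunit protein, which averaged 12.6 ± 3.77 FPKM in high and 13.1 ± 2.81 FPKM in low IMF (SD, n = 12 each). Its listed transcript is a single exon on chr9:19764883-19765325, while RefSeq places RPL35A on chromosome 13. The main transcripts of 16 members overlap the span of another RefSeq gene. How reads shared with near-identical copies or overlapping genes were assigned is not known, so such values are uncertain.

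The 57 genes together took a closely similar share of the muscle transcriptome in both groups. Their summed share of all FPKM was 5.19 ± 0.609% in high and 5.19 ± 0.835% in low IMF (SD, n = 12 each). In high IMF animals the share ran from 4.28% to 6.24% with a median of 5.12%. In low IMF animals it ran from 4.09% to 6.61% with a median of 5.15%. The groups overlapped over nearly their whole range. High IMF animals 11 and 10, at 6.24% and 6.07%, and low IMF animals 10 and 8, at 6.61% and 6.52%, had the largest shares. Low IMF animals 4 and 9, at 4.09% and 4.18%, had the smallest.

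The identifiers of the animals begin with one of 2 sets of 4 digits, whose meaning the labels do not state, and 6 animals of each group fall in each set. In the first set the share was 5.37 ± 0.596% in high and 5.42 ± 0.778% in low IMF. In the second it was 5.01 ± 0.622% in high and 4.95 ± 0.893% in low IMF (SD, n = 6 each). The balance of the subunits was also close between the groups. Summed FPKM of small over large subunit genes was 1.05 ± 0.0274 in high and 1.06 ± 0.0415 in low IMF (SD, n = 12 each).

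**Figure D1:**
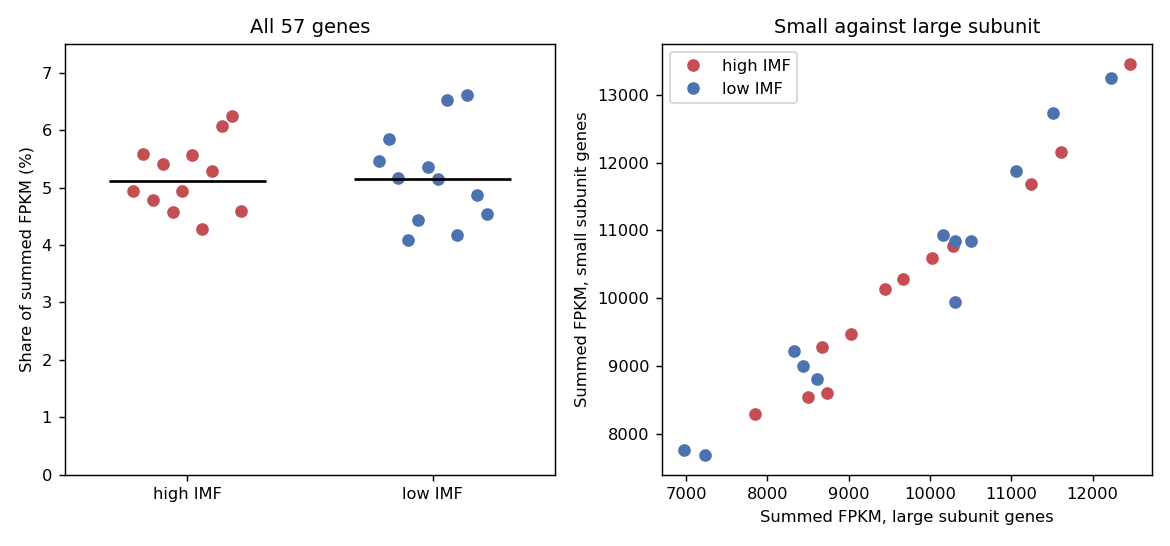
Left, share of summed FPKM (%, y axis) taken by the 57 ribosomal protein genes, 1 point per animal, with lines at the group medians. Right, summed FPKM of small subunit genes (y axis) against large subunit genes (x axis), 1 point per animal. High IMF animals lie between 4.28% and 6.24%, within the low IMF range of 4.09% to 6.61%, and points of both groups are intermixed on the right.

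Gene by gene, no ribosomal protein gene passed the test between high and low IMF muscle. The test was limma on log2(FPKM + 1), high minus low IMF, fitted on the 11753 genes averaging 0.5 FPKM or more and adjusted by Benjamini-Hochberg to a threshold of 0.05. All 57 members were tested. Of all genes, 0.0425% were called higher and 0.00851% lower, and 0 members were called in either direction. At an unadjusted p under 0.05, 4 members were higher, or 7.02%, against a background of 6.79% of all genes. They are RPL9, RPL7L1, RPS27L and RPS19. At the same rule 0 members were lower, against a background of 0.893%. The smallest adjusted p among the members was 0.340 (limma).

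Most members had a fold change near 0. In 43 of 57 the log2 fold change was under 0.1 in size, and the 95% interval reached a median of 0.240 to either side. For 49 members the whole interval lay within ±0.5, and for 39 within ±0.35, on the log2(FPKM + 1) scale. Larger differences than these are outside the intervals of those members. For the 4 members with the widest intervals, RPL23, RPL3, RPS19 and RPS29, a difference could not be bounded closely at this spread.

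The sign of the small differences depended on scaling. As deposited, the median log2 fold change was 0.026 over the members and 0.077 over all genes, but TMM scaling, by a trimmed mean of log ratios, moved them to -0.087 and -0.00082. As deposited, 41 members had a positive sign, or 71.9%, against 73.4% of all genes, but with TMM only 11 did, or 19.3%, against 49.8% of all genes. The members thus stood 0.051 below the median of all genes as deposited and 0.086 below it with TMM, on the log2 scale. They stood 0.017 above it with 1 animal per shared 9 identifier digits and 0.023 above it within the second set of animals. Within the first set of animals the members' median minus that of all genes was -0.137. Upper-quartile scaling gave a median of -0.098 for the members and -0.0081 for all genes. The TMM size factors were 1.04 ± 0.082 in high and 0.969 ± 0.134 in low IMF (SD, n = 12 each).

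**Figure D2:**
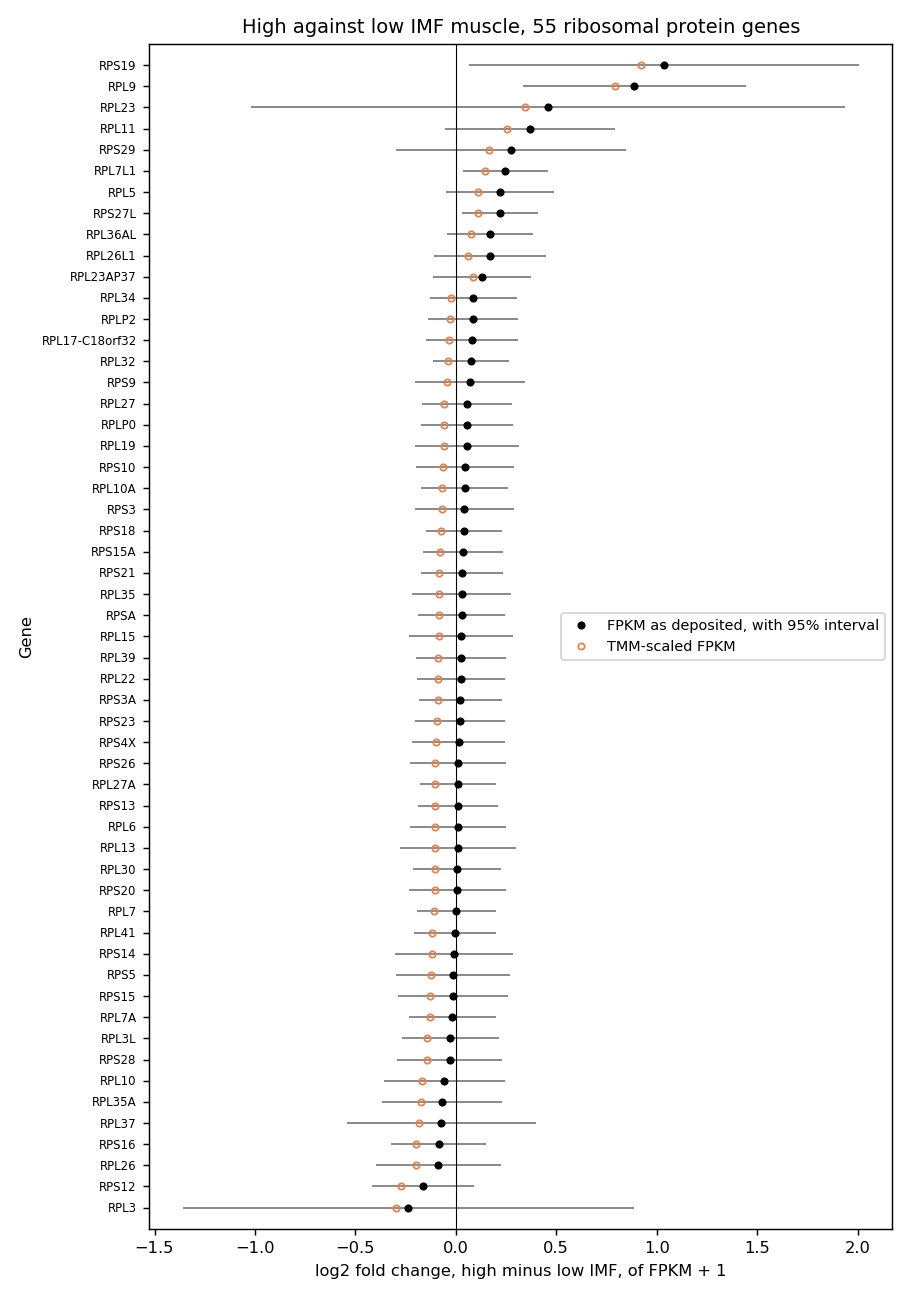
Log2 fold change of FPKM + 1, high minus low IMF (x axis), for 55 of the genes (y axis), with black points and 95% intervals as deposited and open circles after TMM scaling. 41 points lie above 0 as deposited and 11 with TMM, and 48 intervals as deposited lie within ±0.5.

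RPL9, a large subunit protein, had the smallest p of the members. It had 2.80 to 32.3 FPKM in high IMF with a median of 11.5, and 2.86 to 9.75 FPKM in low IMF with a median of 5.84. The means were 13.3 ± 8.50 FPKM in high and 5.93 ± 2.24 FPKM in low IMF (SD, n = 12 each). High IMF animals 1, 11 and 7, at 32.3, 24.1 and 21.2 FPKM, were the highest, and high IMF animal 12, at 2.80 FPKM, was the lowest of all 24. In 10 of 12 high IMF animals RPL9 lay above the low IMF median, and the groups overlapped. The log2 fold change was 0.89 (SE 0.271, limma p = 0.00295, adjusted p = 0.340), and 0.79 with TMM (adjusted p = 0.560).

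Within the identifier sets, RPL9 differed by 0.97 (limma p = 0.00455) in the first and 0.81 (limma p = 0.0896) in the second on the log2 scale. The listed RPL9 transcripts reach beyond the gene. On chromosome 8 the main one, an assembled isoform with 11 exons, spans chr8:30683897-30699209, while RefSeq gives RPL9 30693198 to 30699189. The listed span overlaps KLB over 12227 bases in RefSeq. KLB encodes the beta-klotho coreceptor of the hormone FGF21 and is listed on the opposite strand. KLB itself had 0.588 ± 0.335 FPKM in high and 0.281 ± 0.196 FPKM in low IMF (SD, n = 12 each). The sources used here do not state whether the libraries kept strand, so the part of reads from the opposite strand in RPL9 was not tested.

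Both RPL9 transcripts on chromosome 8 ran the same way. The longer averaged 7.28 ± 5.96 FPKM in high and 2.50 ± 1.74 FPKM in low IMF, and the reference transcript 4.38 ± 4.57 FPKM in high and 1.85 ± 0.983 FPKM in low IMF (SD, n = 12 each). A further locus under the RPL9 name lies on chrX:60626636-60627039, where RefSeq has a transcribed pseudogene. It averaged 1.67 ± 1.22 FPKM in high and 1.58 ± 0.455 FPKM in low IMF (SD, n = 12 each).

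RPS19, a small subunit protein whose loss causes Diamond-Blackfan anaemia in humans, fell into separate levels. In high IMF it had 38.0 to 387.5 FPKM with a median of 305.9, and in low IMF 27.2 to 498 FPKM with a median of 187.4. In 6 animals it lay between 27.2 and 48.5 FPKM, and in the other 18 at 176.5 FPKM or above. The low animals are 1 of 12 high IMF (animal 1) and 5 of 12 low IMF (animals 2, 7, 10, 11 and 12). The log2 fold change was 1.03 (SE 0.472, limma p = 0.0378, adjusted p = 0.627), and 0.92 with TMM. Without high IMF animal 1 it was 1.28, and without low IMF animal 11 it was 0.84. Its unadjusted limma p was under 0.05 in 12 of the 24 fits that leave out 1 animal.

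RPS19 spans chr6:50003164-50010060 on the minus strand, and its main listed transcript, an assembled isoform, held 91.0% of its FPKM. Of the 3 pairs of animals that share 9 identifier digits, high IMF animals 4 and 8 were both in the upper level, at 387.5 and 222.8 FPKM. In low IMF, animals 6 and 7 had 331.7 and 39.5 FPKM, and the pair of animals 2 and 8 had 48.5 and 498 FPKM, so each of these pairs fell into both levels. A like spread in other members is given below.

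The paralogs RPL7L1 and RPS27L were the other members with an unadjusted p under 0.05. RPL7L1, a paralog of the large subunit protein RPL7, had 8.22 to 14.9 FPKM in high IMF (median 9.94) and 6.21 to 11.13 FPKM in low IMF (median 8.97). Its log2 fold change was 0.25 (SE 0.104, limma p = 0.0250, adjusted p = 0.586), with 9 of 12 high IMF animals above the low IMF median. RPS27L, a paralog of RPS27 that is induced by p53 in human cells, had 15.3 to 22.4 FPKM in high IMF (median 17.6) and 10.8 to 22.5 FPKM in low IMF (median 14.2). Its log2 fold change was 0.22 (SE 0.0921, limma p = 0.0252, adjusted p = 0.588), with 12 of 12 high IMF animals above the low IMF median. The highest RPS27L value of the 24 was nevertheless that of low IMF animal 10. The 2 genes stood lower with TMM, at 0.14 and 0.11 on the log2 scale.

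RPS27L differed by 0.39 (limma p = 0.00297) in the first identifier set and by 0.051 (limma p = 0.745) in the second. A term for a difference between the sets gave -0.34 for RPS27L (limma p = 0.0656). Across all genes this term was called for 0% of 11753, and 0 members were called. At an unadjusted p under 0.05 it reached 1 member, RPL36AL (0.47, limma p = 0.0237, adjusted p = 0.998), against a background of 3.29%. RPL36AL, a paralog of RPL36A, averaged 7.36 ± 1.36 FPKM in high and 6.44 ± 1.27 FPKM in low IMF (SD, n = 12 each).

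RPL11 and RPL5 bind a ribosomal RNA together and, in human cells, hold back the p53 inhibitor MDM2 when ribosome assembly is disturbed. RPL11 had 105.1 to 345.5 FPKM in high IMF (median 222.7) and 81.4 to 324.7 FPKM in low IMF (median 140.4). Its log2 fold change was 0.37 (SE 0.205, limma p = 0.0837, adjusted p = 0.685). RPL5 had 319 to 523.6 FPKM in high IMF (median 396.2) and 166 to 564.7 FPKM in low IMF (median 340.3). Its log2 fold change was 0.22 (SE 0.131, limma p = 0.101, adjusted p = 0.704). The groups overlapped for both genes.

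On the lower side, RPS12, a small subunit protein, had the smallest p. It averaged 301.2 ± 64.9 FPKM in high and 331.7 ± 51.0 FPKM in low IMF (SD, n = 12 each), with a log2 fold change of -0.16 (limma p = 0.199, adjusted p = 0.759) as deposited and -0.28 (limma p = 0.0450, adjusted p = 0.964) with TMM. With TMM, RPL9 was the 1 member at an unadjusted p under 0.05 and higher, against a background of 2.81%, and RPS12 the 1 member lower, against 2.35%. RPS16 and RPL26, with log2 fold changes of -0.086 each, and RPL35A, with -0.070, had adjusted p-values of 0.876, 0.918 and 0.932 (limma).

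**Figure D3:**
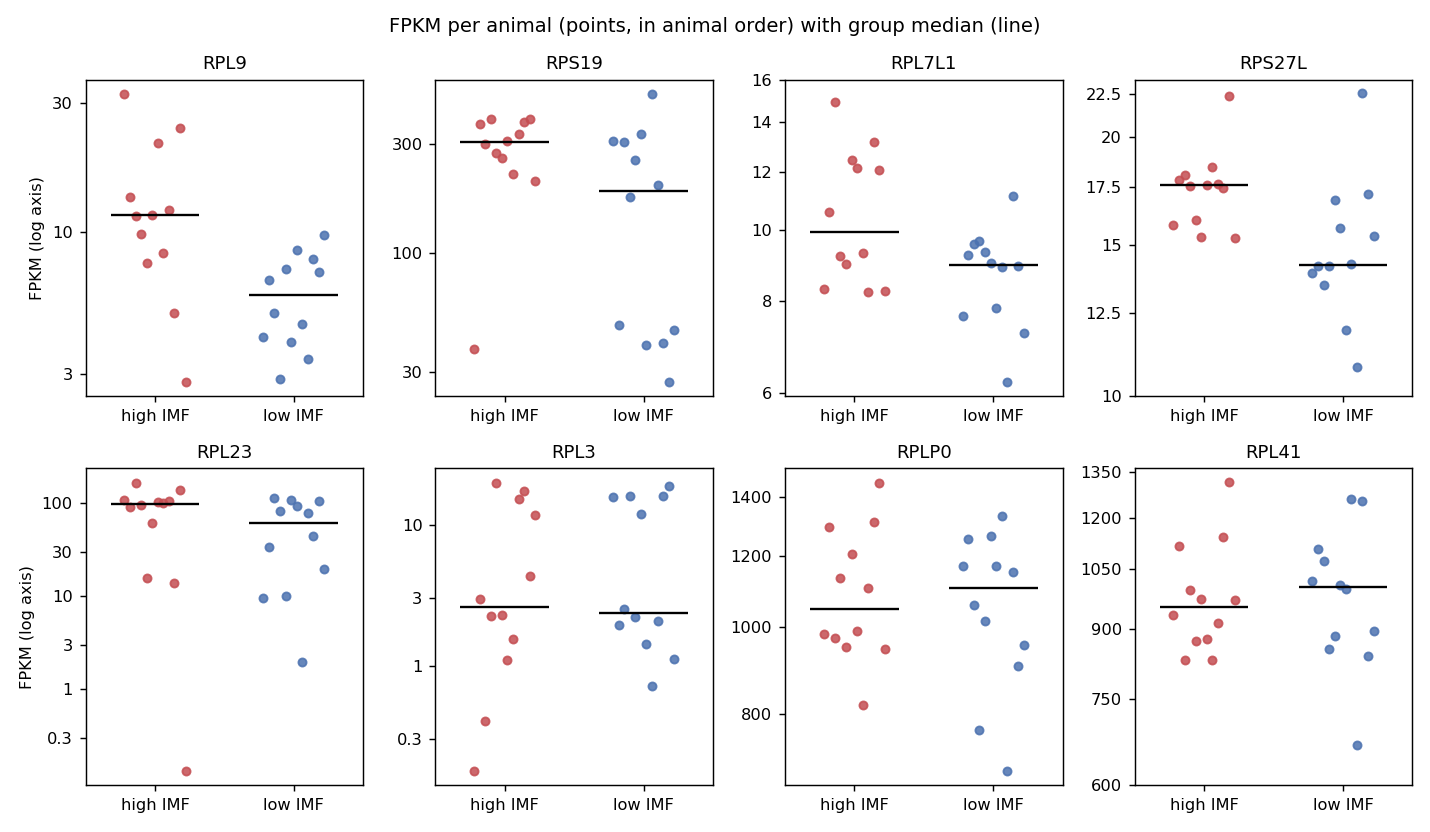
FPKM (y axis, log scale) of 8 members, 1 point per animal in animal order, with lines at the group medians. RPS19 lies at 27.2 to 48.5 FPKM in 6 animals and at 176.5 FPKM or above in the other 18, RPL23 runs from 0.134 to 164 FPKM, and RPLP0 and RPL41 overlap between the groups.

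Some members varied between animals of one group far more than the rest. Within groups, the median SD of log2(FPKM + 1) was 0.284 over the 49 members of at least 50 FPKM, and 0.329 over the 670 other genes at that level. In 8 members it was above 0.4, at 0.529 to 1.89. They include RPL11, RPL37, RPL9, RPS29, RPS19, RPL3 and RPL23, of which RPL23, RPS29 and RPL37 were chosen after their values were seen. For RPS19, RPL23 and RPL3, low values occurred in animals of both groups.

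RPL23, a large subunit protein that can also bind MDM2 in human cells, had 0.134 to 164 FPKM in high IMF with a median of 97.2, and 1.96 to 113 FPKM in low IMF with a median of 61.2. It lay under 50 FPKM in 3 of 12 high IMF and 6 of 12 low IMF animals. Its log2 fold change was 0.46 (SE 0.718, limma p = 0.529, adjusted p = 0.902). Its single listed transcript, chr12:23279965-23290204, extends past the RefSeq end of RPL23 at 23285538. RPS29 had 198 to 576.1 FPKM in high IMF and 71.4 to 525.3 FPKM in low IMF, and RPL37 had 77.6 to 245.9 FPKM in high IMF and 47.5 to 280.0 FPKM in low IMF. The low values did not all fall in the same animals, since 3 of the 24 had both RPS19 under 100 FPKM and RPL23 under 50 FPKM.

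RPL3L, the muscle paralog, was listed far above RPL3 in every animal. It had 207.3 to 298.6 FPKM in high IMF with a median of 247.2, and 175.1 to 371 FPKM in low IMF with a median of 254.3. RPL3 had 0.179 to 19.96 FPKM in high IMF with a median of 2.63, and 0.709 to 19.0 FPKM in low IMF with a median of 2.38. The log2 fold change was -0.029 (limma p = 0.809, adjusted p = 0.970) for RPL3L and -0.24 (SE 0.545, limma p = 0.669, adjusted p = 0.939) for RPL3. The listed RPL3 model is 5881 bases long, spans chr5:8922653-8934282 and runs past the RefSeq end at 8929768, so the level of RPL3 is uncertain.

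RPL3 itself was split between 15 animals at 0.179 to 4.32 FPKM and 9 animals, 4 high and 5 low IMF, at 11.8 to 19.96 FPKM. Because of the split no correlation over all animals is given. Among the 15, log2 values of RPL3L and RPL3 had a Pearson r of 0.24 (permutation p = 0.383) and a Spearman rho of 0.27 (permutation p = 0.333). Without the 2 animals farthest from the median of RPL3, r was -0.042, and with TMM r was 0.42 (permutation p = 0.114) and rho 0.475 (permutation p = 0.0745). Among the 9, r was -0.36 (exact permutation p = 0.339) and rho -0.48 (exact permutation p = 0.194). The r values of the 2 clusters have an adjusted p of 0.383 and the rho values 0.333, so no relation between RPL3L and RPL3 was detectable in 15 or 9 animals.

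The ratio of a paralog to its partner within a library cancels the library's scaling, apart from the pseudocount of 1, and it could be formed for 3 pairs. In log2, RPL7L1 over RPL7 was -5.43 ± 0.271 in high and -5.68 ± 0.245 in low IMF, a difference of 0.24 (SE 0.105, two-sided permutation p = 0.0303, adjusted over the 3 pairs 0.0910). RPL26L1 over RPL26 was -4.44 ± 0.349 in high and -4.69 ± 0.284 in low IMF, a difference of 0.26 (SE 0.130, permutation p = 0.0624, adjusted 0.0936). RPL3L over RPL3 was 5.70 ± 1.41 in high and 5.49 ± 1.59 in low IMF, a difference of 0.21 (SE 0.613, permutation p = 0.738, adjusted 0.738; all SD, n = 12 each). None passed the threshold of 0.05. Leaving out high IMF animal 1, 2 or 9 or low IMF animal 4 took RPL7L1 over RPL7 past it, and leaving out high IMF animal 1 or 2 took RPL26L1 over RPL26 past it.

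The partners themselves differed between the groups by less than their SD. RPL7 averaged 497.8 ± 66.6 FPKM in high and 499.9 ± 88.5 FPKM in low IMF, and RPL26 averaged 455.4 ± 99.7 FPKM in high and 494.8 ± 157 FPKM in low IMF. RPL26L1 averaged 20.2 ± 4.97 FPKM in high and 17.8 ± 4.26 FPKM in low IMF (all SD, n = 12 each), with a log2 fold change of 0.17 (limma p = 0.223, adjusted p = 0.779). RPL23AP37, the lowest member, averaged 1.09 ± 0.329 FPKM in high and 0.947 ± 0.588 FPKM in low IMF (SD, n = 12 each).

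By transcript, 96 of the 125 are reference transcripts, 24 are isoforms added by the assembly and 5 are assembled transcripts classed apart from those isoforms. These 5 include the only listed transcripts of RPL41 and RPL23AP37. Members with 1 listed transcript number 19, and 38 have more. Of the 21405 transcripts tested by limma, 0.0187% were called higher and 0% lower, and 0 of the 125 were called. At an unadjusted p under 0.05, 6 were higher, against a background of 5.25%, and 0 were lower, against 1.09%. The smallest p belonged to a low reference transcript of RPL7L1, which averaged 1.40 ± 1.96 FPKM in high and 0.113 ± 0.0942 FPKM in low IMF (SD, n = 12 each; limma p = 0.00888, adjusted p = 0.583). The others were the pair of RPL9 transcripts on chromosome 8, the reference transcript of RPS27L and both transcripts of RPS19.

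The authors' deposited table gives a fold change of low over high IMF and p- and q-values per transcript. In the authors' deposited table, 8 of the 125 transcripts had a p-value under 0.05 and were higher in high IMF, or 6.4%, against a background of 3.84%, and 0 were higher in low IMF, against 2.55%. Of these, the authors' deposited table gives RPS19 folds of 0.219 (p = 0.003904) and 0.389 (p = 0.006672). The smallest q-value of any kind for a ribosomal protein transcript in the authors' deposited table was 0.287.

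Levels of most ribosomal protein genes were correlated from animal to animal. After subtracting group means, the median Pearson r of log2(FPKM + 1) between members over 24 animals was 0.59 across 1596 pairs, of which 90.3% were positive. Among the 670 other genes of at least 50 FPKM the median was 0.088 across 224115 pairs, and between members and those genes it was 0.17. These values are descriptions, since all points share libraries and their scaling. With TMM the medians were 0.65 for the members and 0.12 for the other genes. With high IMF animal 7 and low IMF animal 10 left out, the members' median was 0.63.

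The large and small subunit genes had like values. The median r was 0.59 among the 33 large subunit genes, 0.59 among the 24 small subunit genes and 0.60 between them. Of the 57 members, 36 had a median r of at least 0.7 with the other members. RPL27 had the highest, 0.84, and RPS26 had 0.83 and RPLP0 0.82. In FPKM as deposited, high IMF animal 11 and low IMF animals 8 and 10 had most of these genes above their means. High IMF animal 8 and low IMF animals 4 and 9 had most of them below. The TMM size factor, which divides the values, was 1.33 in low IMF animal 10. It was 1.03 in high IMF animal 11 and 0.946 in low IMF animal 8. Whether animal 10 stays above the means with TMM was not tested.

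A minority of 10 members did not follow the rest, with a median r under 0.3. Among them are RPL11 (-0.26), RPL23 (-0.052), RPL23AP37 (-0.0023), RPL3 (0.028), RPS19 (0.13), RPL5 (0.21), RPL9 (0.21), RPS12 (0.23) and RPS29 (0.24). They include the 4 genes with the widest fold change intervals named above, RPL23, RPL3, RPS19 and RPS29. With TMM 8 members were under 0.3, and RPL11 was at 0.046 and RPS19 at 0.38. RPL3L, by contrast, had a median r of 0.51 with the other members.

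**Figure D4:**
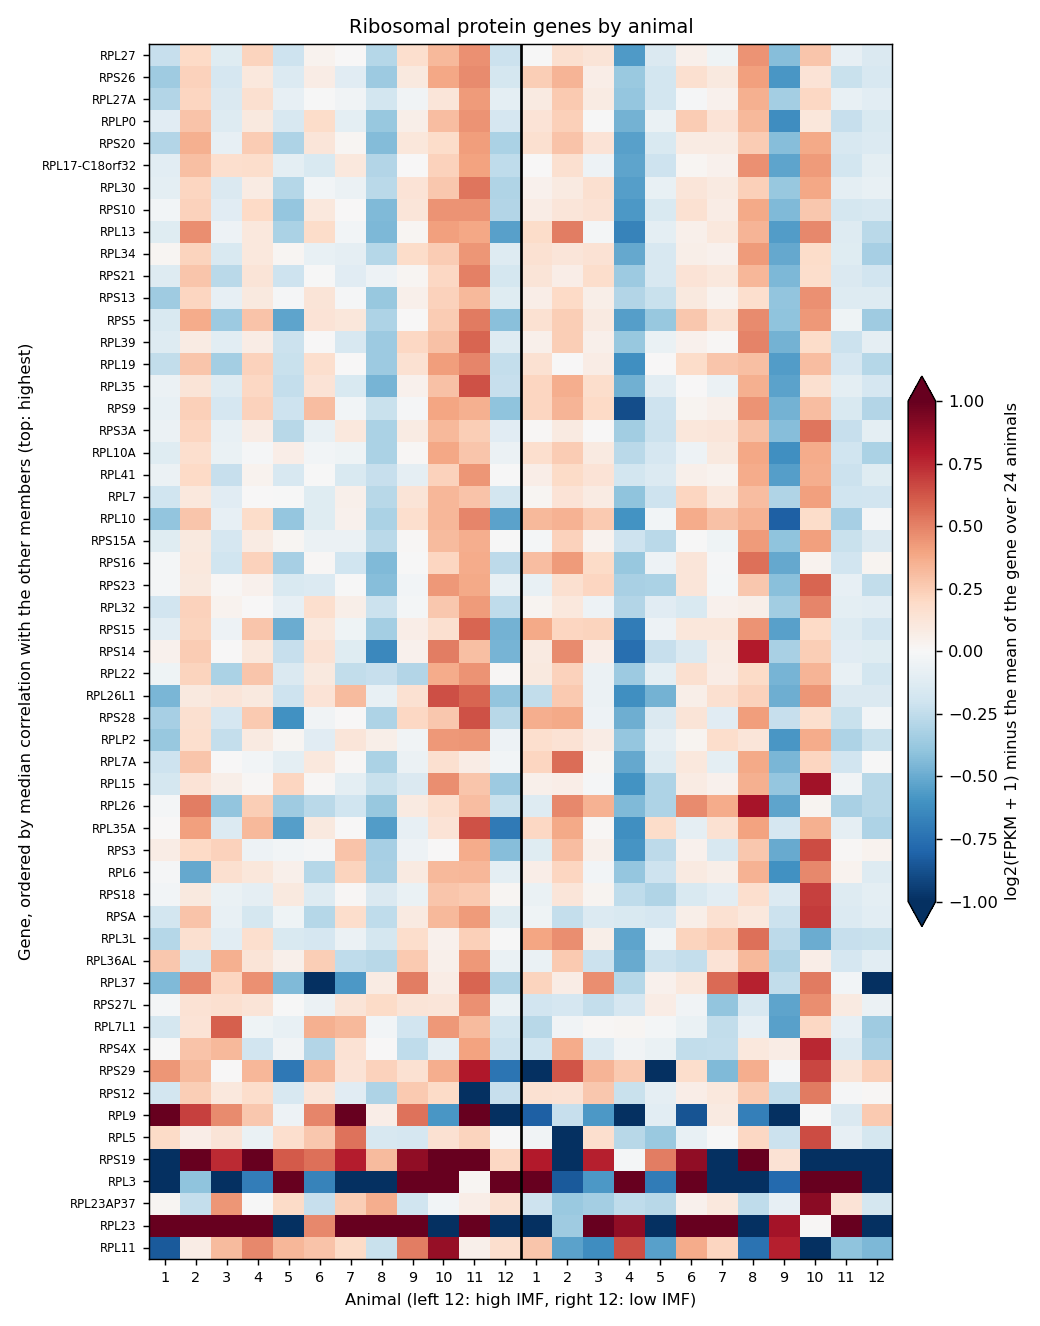
Log2(FPKM + 1) of 55 of the genes (rows) minus its mean over 24 animals (columns, high IMF left and low IMF right of the line), in colour from -1 to 1 with values beyond at the end colours. Rows run from the highest median correlation with the other members, RPL27 at 0.84, to the lowest, RPL11 at -0.26. Most rows share the columns that are red, such as high IMF animal 11, or blue, such as low IMF animal 9.

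Genes of the translation machinery outside the ribosome followed in part, as a description without a test. Lists of such genes were tested in the same limma fit. Of their genes 0 were called, against 0.0425% of all genes higher and 0.00851% lower. Among 8 genes listed as translation elongation factors, 1 was at an unadjusted p under 0.05 and higher, against a background of 6.79%, namely EEF2K. It is not itself such a factor but the kinase that inhibits elongation factor EEF2. It averaged 11.2 ± 1.99 FPKM in high and 8.18 ± 2.35 FPKM in low IMF (SD, n = 12 each), with a log2 fold change of 0.43 (limma p = 0.00198, adjusted p = 0.290). The log2 fold change of EEF2K was 0.33 with TMM. The median log2 fold change of the list was 0.057, and -0.044 with TMM. EEF1G and EEF1D, subunits of the elongation factor exchange complex, had a median r of 0.74 each with the ribosomal protein genes, and EEF2 had -0.021.

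Of 33 translation initiation factor loci, 31 had a positive sign as deposited, against 73.4% of all genes, and 22 with TMM, against 49.8%. Their median log2 fold changes were 0.15 and 0.047. At an unadjusted p under 0.05 there were 0, against backgrounds of 6.79% higher and 0.893% lower. EIF4G1, the scaffold of the cap-binding complex, averaged 18.8 ± 9.05 FPKM in high and 11.4 ± 8.50 FPKM in low IMF (SD, n = 12 each; limma p = 0.0522, adjusted p = 0.651). EIF3G and EIF3K, subunits of the initiation factor that binds the small subunit, had the highest median r with the ribosomal protein genes, 0.78 and 0.76. The median r of all 33 was 0.25.

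Ribosomal proteins and partners under other names were represented by 8 loci, whose median r with the ribosomal protein genes ran from -0.54 to 0.78 with a median of 0.23, and 4 of them were at 0.5 or more. RACK1, a scaffold protein on the small subunit, had a median r of 0.78 with the ribosomal protein genes and a mean of 466.1 FPKM. TPT1 on chromosome 11, a highly abundant growth-related transcript, had 0.67. It averaged 6224 ± 819 FPKM in high and 5753 ± 867 FPKM in low IMF (SD, n = 12 each; limma p = 0.218, adjusted p = 0.773). FAU, which encodes a small subunit protein fused to a ubiquitin-like one, had 0.55 but a mean of only 2.02 FPKM. The lowest r was that of NACA, a subunit of the complex that binds nascent chains. A second TPT1 locus, on chromosome 5, had an r of -0.090 and the smallest p of the list. It averaged 178 ± 187 FPKM in high and 373 ± 190.2 FPKM in low IMF (SD, n = 12 each), with a log2 fold change of -1.53 (SE 0.886, limma p = 0.0952, adjusted p = 0.698). The median log2 fold change of these loci was -0.028, and -0.13 with TMM.

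Of 35 ribosome assembly factors, 2 were at an unadjusted p under 0.05 and higher, against a background of 6.79%, and 0 lower, against 0.893%. They are NOP10, part of the particles that modify ribosomal RNA (14.1 ± 1.77 FPKM in high and 12.1 ± 2.51 FPKM in low IMF; adjusted p = 0.608, limma), and RRP9, part of the particle that processes it (14.6 ± 2.26 FPKM in high and 12.5 ± 2.46 FPKM in low IMF; adjusted p = 0.627, limma; SD, n = 12 each). The log2 fold changes of NOP10 and RRP9 were 0.22 each as deposited, and 0.11 and 0.12 with TMM. The list's median log2 fold change was 0.084, and -0.0014 with TMM. Among 14 loci for the transcription of ribosomal DNA, 0 were at an unadjusted p under 0.05, against backgrounds of 6.79% higher and 0.893% lower. The median log2 fold change of these 14 was 0.074, and 0.0015 with TMM. The median r with the ribosomal protein genes was 0.28 for assembly and 0.082 for transcription of ribosomal DNA.

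Of 22 genes of the mTORC1 and S6 kinase pathway, 1 was at an unadjusted p under 0.05 and higher, against a background of 6.79%. It is LAMTOR4, part of the lysosomal anchor of mTORC1, with 55.2 ± 9.61 FPKM in high and 46.7 ± 7.30 FPKM in low IMF (SD, n = 12 each; log2 fold change 0.24, limma p = 0.0247, adjusted p = 0.586). The log2 fold change of LAMTOR4 was 0.13 with TMM. The list's median was 0.11, and 0.0011 with TMM. EIF4EBP1, a repressor of cap-dependent translation that mTORC1 switches off, had a median r of 0.64 with the ribosomal protein genes, and RPS6KB1, a kinase of RPS6, had -0.23. Their relatives in the list had the opposite sign, EIF4EBP2 with -0.40 and RPS6KB2 with 0.51. The median r of the list was 0.16.

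**Figure D5:**
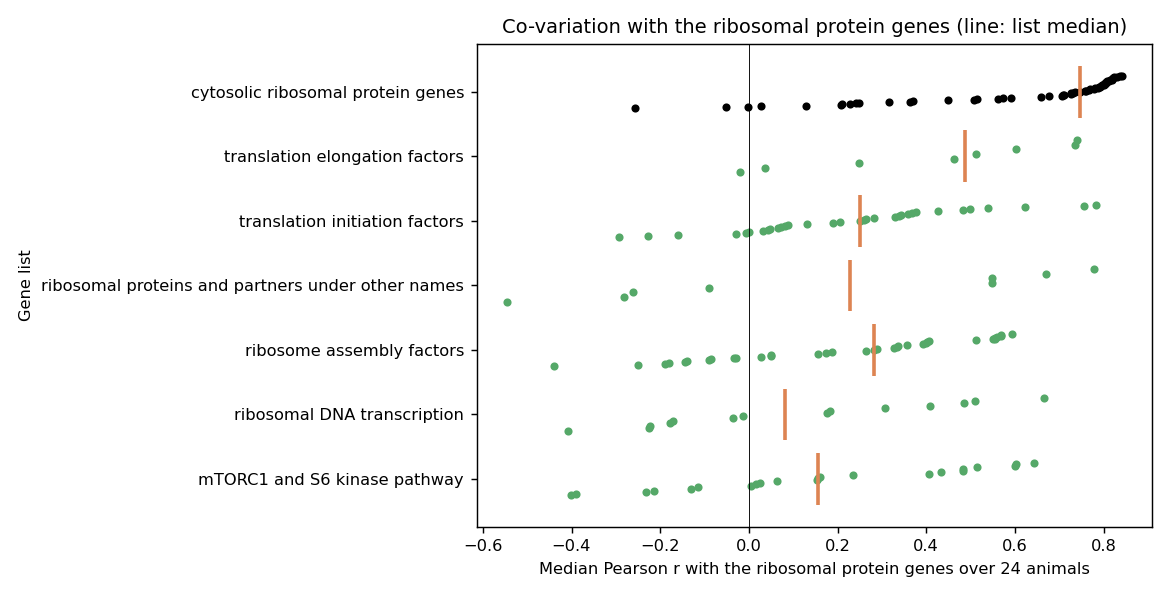
Median Pearson r over 24 animals with the ribosomal protein genes (x axis), after subtracting group means, 1 point per gene, for the ribosomal protein genes and 6 lists of related genes (y axis), with lines at the median of the points. The ribosomal protein genes reach 0.84, while EIF3G at 0.78 and RACK1 at 0.78 are the highest of their lists.

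The ribosomal proteins of mitochondria, encoded by other nuclear genes, are the nearest set for comparison. As deposited, 17 of 59 were at an unadjusted p under 0.05 and higher and 0 lower, with 0 called, against backgrounds of 6.79% higher and 0.893% lower over all genes. Of the 59, 53 had a positive sign, against 73.4% of all genes, with a median log2 fold change of 0.16 against 0.026 for the cytosolic members. With TMM 43 of 59 had a positive sign, against 49.8% of all genes, with a median of 0.068 against -0.087 for the cytosolic members. The difference between the 2 sets was not tested. Mitochondrial ribosomal protein genes had a median r of 0.35 among themselves (0.22 with TMM) and 0.33 with the cytosolic ones.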

How the data were processed

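The authors deposited FPKM values, 1 per transcript and animal; the unit was inferred from the values, as the file headers do not name it. HISAT2 2.0.5, StringTie 1.3.3 and the build Sscrofa11.1 come from the submitters' processing notes, which give no roles. Which annotation release was used is not stated in the sources used here. Per the file headers, the deposited table also holds, for each transcript, 1 fold change and 1 p-value with 3 q-values. The fold is low over high IMF, as its sign matched the FPKM means in all 328 transcripts at a p-value under 0.01. Columns were tied to animals by the identifiers in the sample titles.

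FPKM was summed per member symbol over all its loci, and for other genes per symbol and chromosome. Limma 3.58.1 in R 4.3.3 was run on log2(FPKM + 1), a scale that understates the change of low genes; the empirical Bayes step was robust and allowed for a trend with level. TMM and upper-quartile factors were computed from FPKM in R, and no count test was used. The limma script was tested on simulated data. Permutation tests (100000 resamples, two-sided, exact under 10 animals) used Python 3.11.15, numpy 2.4.6 and scipy 1.17.1. Depth was taken per library as the divisor that made 73.3% to 90.0% of low values whole, within 0.05 base, against 26.9% to 43.0% for the next best; whether it counts reads or pairs is not known, so no count model was used.

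The members and all gene lists were chosen with earlier results of these data known. Named members were the 6 of smallest p per direction, the 6 of highest and 4 of lowest mean, paralogs with their partners, the stalk proteins, RPSA and RPS6; up to 3 genes per related list and 4 transcripts by p were added. Other genes were chosen after their values were seen, as was the look at RefSeq loci. Single-gene values of 2 members are not reported here, though they count in the totals. Alternatives were TMM and upper-quartile scaling, no filter or at least 5 FPKM, a pseudocount of 0.1, no robust moderation, array weights, the first 4 identifier digits as a term or a split, 1 animal per shared 9 digits, symbols kept apart by chromosome, reference transcripts alone, and animals left out.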

Additional observations from a re-analysis of the deposited data

How the results depend on the processing

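Under each alternative run, and without each animal in turn, 0 ribosomal protein genes were called by limma, and the smallest adjusted p among members was 0.118 (without high IMF animal 12). The 4 members higher at an unadjusted p under 0.05 numbered 1, or 1.75%, under TMM, against 2.81% of all genes. They also numbered 1 under upper-quartile scaling, against 2.51%, and 1 in the second identifier set, against 2.27%. Without each animal in turn they numbered 2 to 5 (2 without high IMF animal 3 or 11). That is 3.51% to 8.77% of members, against 5.26% to 14.2% of all genes. The 0 lower became 1 under TMM, against 2.35%, and 1 under upper-quartile scaling, against 2.53%. The members' median log2 fold change ran from -0.0145 to 0.0682 without each animal in turn, was -0.087 with TMM, -0.098 with upper-quartile scaling, 0.092 with 1 animal per shared 9 digits and -0.00053 within the first identifier set.

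For RPL3L over RPL3 the difference in log2 ratio was -0.089 with high IMF animal 7 and low IMF animal 10 left out and -0.45 within the first identifier set. RPL7L1 over RPL7 was 0.34 there (permutation adjusted p = 0.0325), past the threshold. Over the animals whose removal took a ratio past the threshold, RPL7L1 over RPL7 was 0.25 to 0.29 and RPL26L1 over RPL26 was 0.30 to 0.31; without each animal in turn RPL26L1 over RPL26 ran from 0.21 to 0.31. RPL3L against RPL3 had an r of -0.042 without the 2 farthest animals in the lower cluster and 0.42 with TMM there, and in the upper cluster 0.19 with TMM.

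Of 348 values of the 22 named members, 316 kept their sign. The log2 fold changes that turned round were as follows, all at an unadjusted limma p above 0.1. With TMM they were -0.11 for RPL7, -0.058 for RPLP0, -0.027 for RPLP2 and -0.084 for RPSA, and with upper-quartile scaling -0.12, -0.069, -0.038 and -0.094. With 1 animal per shared 9 digits they were 0.055 for RPL26, 0.027 for RPL35A, 0.064 for RPL3L, 0.058 for RPL41, 0.037 for RPL7A and 0.024 for RPS28. Within the first identifier set they were 0.23 for RPL3, -0.063 for RPL36AL, -0.023 for RPL7 and -0.036 for RPLP0, and within the second 0.0040 for RPL26, 0.16 for RPL3L, 0.023 for RPL41, 0.076 for RPL7A and -0.047 for RPSA. With high IMF animal 7 and low IMF animal 10 left out they were 0.018 for RPL3 and 0.044 for RPL41, and with reference transcripts alone 0.25 for RPL26. Without each animal in turn, the range was -0.078 to 0.020 for RPL3L, -0.053 to 0.031 for RPL41, -0.033 to 0.041 for RPL7, -0.064 to 0.033 for RPL7A, -0.090 to 0.023 for RPS28 and -0.0083 to 0.094 for RPSA. The cause was not tested.

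The groups of 12 limit the precision: the median 95% interval spans 0.240 on either side on the log2 scale, and depth per library is known only by inference. No paired analysis was possible because the labels number no animals across groups.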
